A study of Mus musculus with 40 samples.

Results

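The matrix metalloproteases (MMPs), the ADAMTS proteases and their tissue inhibitors (TIMPs) set how fast the extracellular matrix of a tissue is cut and replaced. Members were all genes whose symbol in the deposited annotation is Mmp, Adamts or Timp followed by a number, without Mmp12. This gave 43 genes of the 29411 gene symbols on the array, of which 20 are MMPs, 19 are ADAMTS proteases and 4 are TIMPs. Each gene was read through its probe with the highest mean signal. C57BL/6J mice were placed after weaning on a low-fat diet (LFC), a high-fat diet rich in sucrose (HFC), or that high-fat diet with 5 μg (HF5), 20 μg (HF20) or 75 μg (HF75) of Kal-1, a plant-based formulation. RNA from material labelled as subcutaneous stromal vascular cells was hybridised to Agilent 44K arrays in 1 colour.

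Both control diets were sampled on days 1, 6, 10 and 14 (D1 to D14) and in weeks 0, 3, 6, 9, 12, 15 and 18 (W0 to W18, counted from day 14), which gives 11 LFC and 11 HFC arrays. HF5 had 6 arrays, from W3 to W18, while HF20 and HF75 had 5 each, from W3 to W15. All mice were of the same strain and were weaned at 3 to 4 weeks of age. Kal-1 was given only on the high-fat diet, so its groups have no low-fat counterpart. Each diet had 1 array per time point, and the labels do not say how many mice an array holds. The p-values therefore measure the spread between time points, which may be partly technical. Another 2 arrays of W18 carry labels that conflict and were placed in no group.

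MMPs are zinc enzymes made as inactive proforms. Gelatinases, collagenases and stromelysins are secreted, the membrane-type MMPs work at the cell surface, and TIMPs block the active site. ADAMTS proteases cut proteoglycans such as aggrecan and versican, trim procollagen or cut single blood and cartilage proteins. In fat tissue, growing adipocytes need room in a collagen network, and fibroblasts, endothelial cells and macrophages are known sources of these enzymes.

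Levels are log2 intensities from which the 75th percentile of each array was subtracted. A spot that the scanner software did not call well above background was given at least the lowest level called so on its array, and such values are called raised here. A level is compared only with levels of the same probe on other arrays.

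The labels call the material subcutaneous stromal vascular cells, while the series title speaks of infiltrating macrophages. The fibroblast list (10 genes, brightest probe Dcn) had a median mean level of 3.82 over the 38 arrays, the endothelial list (8 genes, Vwf) of 2.33 and the macrophage list (11 genes, Cd14) of 0.75. The adipocyte list (10 genes, Fabp4) had a median of 2.18, with a range from -3.68 to 6.08. Stromal, endothelial and macrophage markers were thus present. So were adipocyte markers and skeletal muscle markers (6 genes, from -4.32 to 6.53), which a stromal vascular fraction should largely lack. The medians of the other lists were -0.26 for neutrophils (S100a9), -0.84 for T cells (Cd5), -2.36 for B cells (Cd79b), -2.31 for mast cells (Cma1), 1.74 for skeletal muscle (Tnni2), -1.79 for epithelium (Krt18), 0.44 for erythroid cells (Hbb-b1) and -1.39 for lymph node (Ccl19). The genes of the early response (10 genes, Junb), such as Fos and Egr1, are transcribed within minutes of a stimulus and had a median of 4.90. In such bulk samples, fewer cells of a type and less RNA per cell cannot be told apart.

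Some arrays stood apart. The LFC array of W3 was dim, with a 75th percentile intensity of 7.863 and 17.2% of its spots well above background, and only 8 of the 43 members passed there. Its raised values lie at -0.03. The LFC array of D14 had 9104 of 43803 spots marked as outliers. On the LFC array of W18, the mean levels of fibroblast, adipocyte and endothelial genes were -3.92, -3.68 and -4.17, while those of neutrophil and erythroid genes were 6.23 and 5.56. The adipocyte mean exceeded 4 on 10 arrays (LFC D6, W9 and W12; HFC D1, D6 and W9; HF5 W9; HF20 W9, W12 and W15), where it was at least 4.77, and reached at most 3.42 on the 28 others. In the same order, the early response means of these arrays were 1.23, 0.08 and -0.09 in LFC, 0.52, 4.59 and 3.46 in HFC, 0.75 in HF5, and 0.60, -0.72 and 2.23 in HF20, so that HFC D6 and HFC W9 were the highest. The titles of 4 of these arrays, those of W9 apart from HF75, hold the letters WS, whose meaning the labels do not give.

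**Figure D1:**
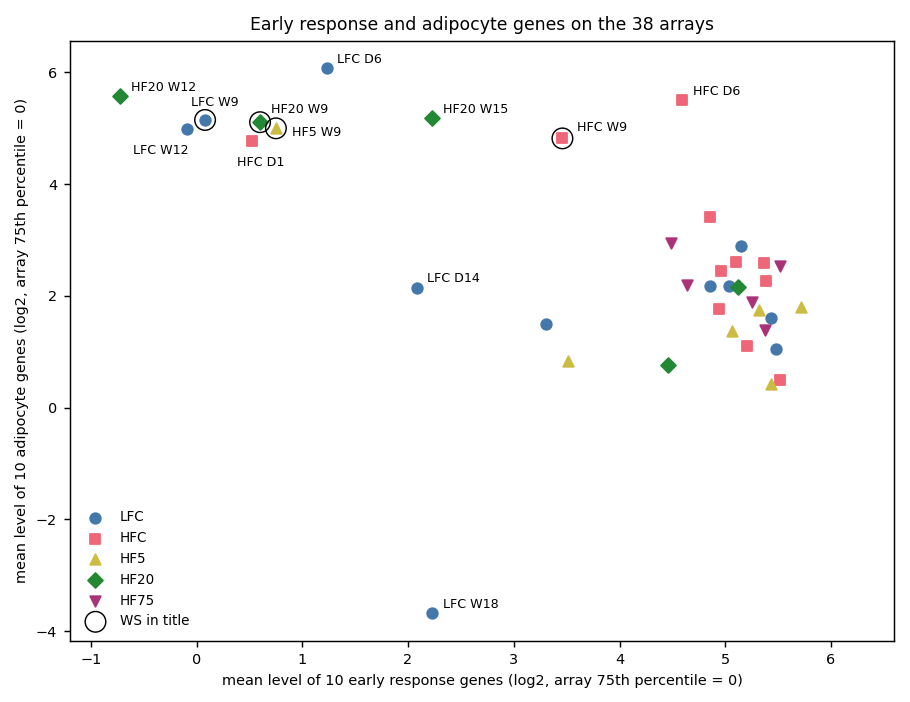
Mean level of 10 early response genes against that of 10 adipocyte genes (both log2, 75th percentile of the array = 0), with 1 point per array for 38 arrays in 5 diets; rings mark titles with WS. The 10 arrays at the top have adipocyte means of 4.77 or more, and the LFC array of W18 lies alone at -3.68.

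How often the members were detected, beside all genes, depended on the cut. Of the 43, 5 were well above background on all 38 arrays (Mmp14, Adamts4, Timp1, Timp2 and Timp3), beside 3930 of 29411 genes. On at least 36 arrays it was 18 members (41.9%, beside 48.6% of all genes). On at least 30 arrays the numbers were 29 members and 67.4%, beside 60.6% of all genes. The 8 members well above background on fewer than 19 arrays (18.6%, beside 31.5% of all genes) were Mmp20 (1), Mmp21 (4), Mmp28 (12), Mmp24 (13), Adamts3 (3), Adamts13 (3), Adamts19 (14) and Adamts20 (16). These include the tooth enamel protease Mmp20 and Adamts13, the protease of von Willebrand factor. Mmp20 passed only on the dim LFC array of W3. An array had between 8 and 40 members well above background with a median of 34, and the lowest count was 19 (the LFC array of W18) without the dim array. On that W18 array 44.2% of members passed, beside 62.3% of all genes.

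Mmp2 and Mmp9 are gelatinases, which cut denatured and basement membrane collagen. Mmp2 had levels between -6.79 and 2.99 in LFC (median 1.83) and from -0.13 to 3.64 on the HFC arrays (median 2.99), with no value at D10 in either diet. On HF5 it was -0.44, 2.94, 2.90, 2.22, 2.95 and 1.67 from W3 to W18. The HFC arrays of W0 to W15 held Mmp2 within 2.98 to 3.64, and those of D1, D6, D14 and W18 lay lower, at -0.13, 0.18, 1.09 and 0.84. Mmp9, a gelatinase stored by neutrophils, ranged from -3.29 to 3.06 in LFC (median -2.18) and from -4.60 to -1.20 in HFC (median -2.26). Its values were -3.07, -2.70, -3.09, -1.89 and -2.06 in HF20 and -3.20, -3.88, -1.80, -2.95 and -1.72 in HF75. The 3.06 belongs to the LFC array of W18, and all other arrays lay at -0.03 or lower, so the diets overlapped.

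The collagenases cleave fibrillar collagen, and Mmp13 is the main such enzyme of mouse stroma while Mmp8 comes from neutrophils. Mmp8 ranged from -6.47 to 3.61 in LFC (median -2.32), from -7.76 to -1.44 in HFC (median -3.67) and from -7.48 to 1.38 in HF5 (median -1.72). Its highest value was that of the LFC array of W18, the array with the highest neutrophil mean. Mmp13 ranged from -6.57 to 2.25 in LFC (median -3.60), from -5.20 to 2.45 in HFC (median -1.74) and from -5.89 to 1.17 in HF5 (median -1.20). On the HF20 arrays of W3 to W15 it was -0.40, -4.17, -3.97, -5.92 and -3.74, and on those of HF75 2.36, -0.66, 1.49, 3.31 and 1.29. Mmp13 was thus lower in HF20 than in HF75 at every time point.

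The stromelysins cut proteoglycans and fibronectin, and Mmp3 also activates other MMPs. Mmp3 ranged from -6.20 to 3.99 in LFC (median 1.56), from -1.65 to 4.51 in HFC (median 2.48) and from 0.41 to 4.37 in HF5 (median 2.90). Its values were 2.51, -0.62, 2.34, 2.32 and 2.88 in HF20, and 1.77, -0.37, 2.36, 2.66 and 4.14 in HF75. In both groups W6 was the lowest, and at W6 it was also low in LFC (-1.06), HFC (0.27) and HF5 (0.41). Mmp11, which furin activates inside the cell, had medians of -0.69 in LFC, -0.07 in HFC, -0.23 in HF5, -0.23 in HF20 and -0.56 in HF75. Mmp10 was well above background on 19 arrays only.

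Mmp7, or matrilysin, is a small MMP made mainly by glandular epithelium. Its levels at W6 were 4.54 in LFC, 3.47 in HFC, 3.99 in HF5, 3.59 in HF20 and 4.21 in HF75. On the 33 other arrays it did not exceed 0.69 (HF5 W15), and it was the only member whose 5 W6 arrays lay wholly above or below all others, beside 0.578% of genes (166 of 28739). The epithelial list had means of 3.27, 0.56, 3.15, 2.62 and 1.42 on these arrays and of 2.33 on HF5 W15. Epithelial RNA in the W6 material and its part in the Mmp7 level were not tested, and the pattern was seen only after the values were.

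Mmp14 is a membrane-type MMP that activates pro-Mmp2 at the cell surface. It ranged from -0.89 to 4.24 in LFC (median 2.85), from 0.90 to 4.79 in HFC (median 3.84) and from 1.05 to 4.36 in HF5 (median 3.40). On HF20 it was 3.37, 3.46, 2.71, 2.88 and 3.61, and on HF75 2.60, 3.62, 2.44, 3.35 and 3.90, so the diets overlapped widely. Of the other membrane-type MMPs, Mmp15 and Mmp17 were well above background on 34 and 37 arrays, and Mmp16, Mmp24 and Mmp25 on 23, 13 and 26. Mmp25, a membrane-anchored MMP of neutrophils, had its highest level, 0.19, on the LFC array of W18. Of the remaining MMPs, Mmp19, Mmp23 and Mmp27 passed on 37, 35 and 34 arrays.

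Adamts1, Adamts4, Adamts5, Adamts8, Adamts9, Adamts15 and Adamts20 cleave aggrecan, versican and related proteoglycans. Adamts1 ranged from -6.79 to 5.77 in LFC (median 3.08), from 0.79 to 6.02 in HFC (median 4.32) and from 0.31 to 6.02 in HF5 (median 4.72). Adamts4 ranged from -3.92 to 3.31 in LFC (median -0.42), from -3.46 to 2.31 in HFC (median 0.38) and from -3.59 to 2.83 in HF5 (median 1.02). Adamts4 was low at -3.06, -3.92, -3.18 and -3.95 on the HFC, LFC, HF5 and HF20 arrays with WS in the title, at -2.49 on LFC W12, -2.52 on LFC D6, -3.46 on HFC D1, -2.78 on HF20 W12 and -3.44 on HF20 W15. Each of these arrays had an adipocyte mean above 4, but so did HFC D6, where Adamts4 was at 0.38. Adamts4 was also low, at -3.59, on HF5 W3 and, at -2.38, on HF75 W9, where the adipocyte means were 0.84 and 2.95. Adamts5 had medians of 1.93 in LFC, 1.75 in HFC, 2.30 in HF5, 2.53 in HF20 and 1.60 in HF75.

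Of the procollagen N-propeptidases, which trim new collagen before it forms fibrils, Adamts2 and Adamts14 were well above background on 37 and 36 arrays, and Adamts3 on 3. Adamts2 had medians of 3.58 in LFC, 4.28 in HFC, 3.94 in HF5, 3.90 in HF20 and 3.22 in HF75. Adamts7 and Adamts12, which cut cartilage oligomeric matrix protein, passed on 34 and 26 arrays. Adamts6, Adamts10, Adamts16, Adamts17 and Adamts18 passed on 36, 37, 29, 34 and 33.

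Timp1 is an inducible and secreted inhibitor. It ranged from -2.27 to 3.23 in LFC (median 0.50), from -2.00 to 3.37 in HFC (median 0.83) and from -1.26 to 4.25 in HF5 (median 1.80). On HF20 it was 0.63, 0.97, -0.72, -1.48 and -0.55, and on HF75 0.55, 1.86, 0.67, 1.60 and 3.34. Timp2, which also brings pro-Mmp2 to Mmp14, ranged from 2.16 to 6.33 in LFC (median 4.75), from 2.37 to 6.57 in HFC (median 5.88) and from 4.53 to 7.01 in HF5 (median 6.03). Its spot was saturated on 15 arrays, so these levels can be too low. Timp3, which binds to the matrix and also blocks ADAMTS proteases, ranged from -4.65 to 5.71 in LFC (median 4.15), from 3.99 to 5.95 in HFC (median 4.98) and from 1.49 to 5.98 in HF5 (median 4.68). Timp4, known from heart and fat, had medians of 1.70 in LFC, 1.69 in HFC, 2.30 in HF5, 3.44 in HF20 and 1.54 in HF75. All 4 TIMPs had their lowest level on the LFC array of W18, where Timp4 was not well above background.

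**Figure D2:**
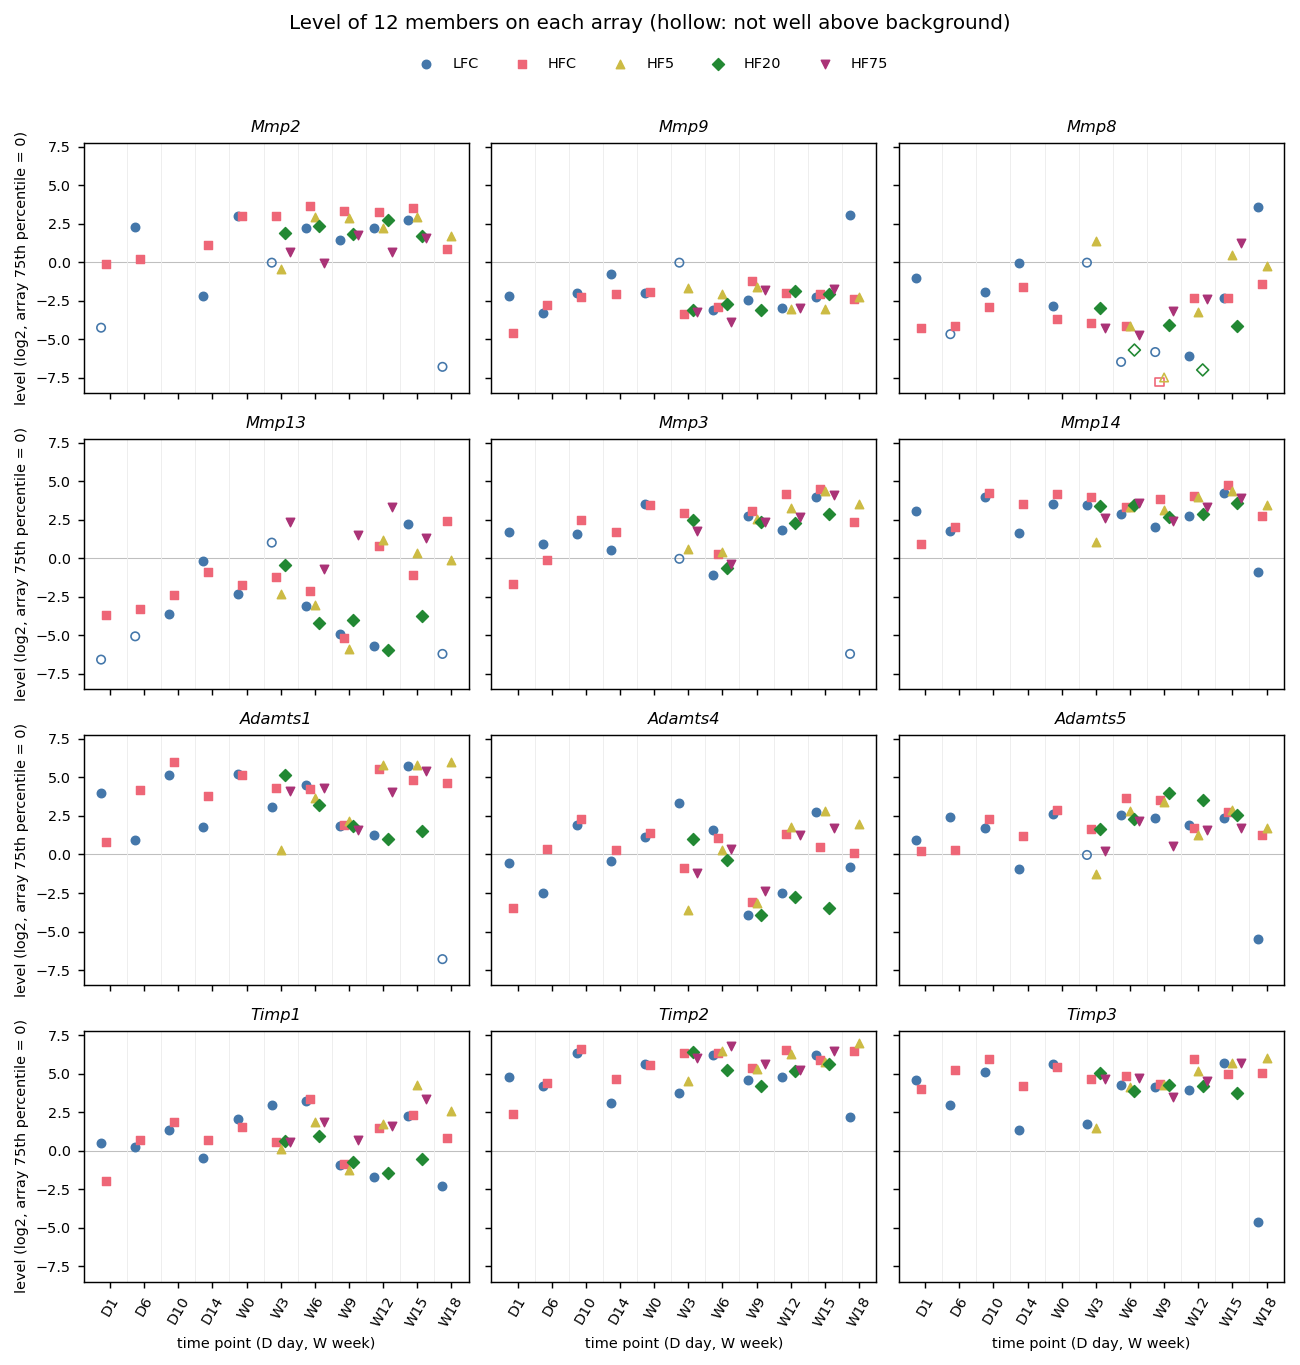
Level of 12 members (log2, 75th percentile of the array = 0) on each of the 38 arrays by time point, with 1 point per array in 5 diets and hollow points not well above background. Mmp2 in HF75 lies between -0.07 and 1.74, below the HFC arrays of W3 to W15 at 2.98 to 3.64.

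The LFC array of W18 was above or below all other arrays for 22 of the 43 members, beside 14.0% of all genes (4037 of 28739). It was above them for Mmp8, Mmp9 and Mmp25, which neutrophils carry, and below them for 19 members, among them the 4 TIMPs, Mmp2, Mmp3, Mmp14, Adamts1, Adamts2 and Adamts5. The neutrophil mean of 6.23 and the fibroblast mean of -3.92 on this array stand beside these values, and their part was not tested. The differences between HFC and LFC below are therefore followed by their values without W18.

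The first comparison asked what the high-fat diet did to the members in 11 pairs of arrays that share a time point. Most members were higher in HFC than in LFC, but with a wide spread and on no firm footing. None of the 35 members tested passed an adjusted p under 0.05 in limma, beside 0% of all genes (0 of 20827), and 2 passed at an unadjusted p under 0.05, beside 3.11% of genes. Of the 35, 26 were higher and 9 lower in HFC (74.3% higher, beside 47.5% of genes), and the median difference was 0.50, beside -0.03 over all genes. Without W18 the median was 0.21, beside -0.07, and without D14, W3, W9 and W18 together 0.19, beside 0.07. With normexp background correction it was 0.14, beside -0.10, and 6 members passed at an unadjusted p, beside 9.19% of genes.

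The members with the largest positive differences between HFC and LFC, none of which passed, were Mmp2, Timp3 and Adamts1. Mmp2 differed by 2.11 ± 0.73 (SE, 10 pairs; limma adjusted p = 0.941) and was higher in HFC in 9 of 10 pairs. Timp3 differed by 1.80 ± 0.77 and Adamts1 by 1.70 ± 0.99 (11 pairs each). These differences were 1.49, 1.02 and 0.73 without W18, and 0.88, 0.61 and 0.57 without D14, W3, W9 and W18. Mmp14 differed by 0.85 ± 0.42 and was higher in 10 of 11 pairs, with 0.57 without W18 and 0.21 without the 4 time points. On the negative side were Mmp8 (-0.99 ± 0.69) and Mmp9 (-0.87 ± 0.57), with -0.58 and -0.41 without W18. Mmp10 was well above background on 5 of 11 HFC and 7 of 11 LFC arrays. It passed the filter on dim spots, which asks for 50% of the arrays of either diet, only through LFC, so no difference is given. Without the 4 time points Mmp8 came to 0.22 and Mmp9 to -0.11. The 4 TIMPs had differences from 0.29 to 1.80, and from 0.01 (Timp1) to 1.02 without W18. The 6 proteoglycan-cleaving ADAMTS genes tested had differences from 0.00 to 1.70, and from -0.09 (Adamts4) to 0.73 without W18. Between the same pairs, the mean of the fibroblast list differed by 1.03 (SD 2.40), that of the endothelial list by 1.13 (SD 2.04) and that of the early response by 1.38 (SD 2.63). Without W18 these were 0.36 (SD 0.93), 0.56 (SD 0.88) and 1.23 (SD 2.73), and their part in the values of the members was not tested.

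Other genes of the protease system and its substrates also did not pass. Of 68 genes in 7 lists (the plasminogen system, other activators and inhibitors, ADAM proteases, ADAMTS-like proteins, matrix cysteine proteases, matrix substrates, and inducers with AP-1 factors), 65 were tested and 0 passed in limma, with 6 higher and 0 lower at an unadjusted p under 0.05, beside 3.11% of all genes in either direction. Without W18 these were 4 and 0, beside 2.31%. The lowest p-values were those of Pcolce2, which enhances procollagen cleavage (1.42 ± 0.50), the laminin gene Lamc1 (1.27 ± 0.49), the transcription factor gene Ets2 (0.94 ± 0.36) and the basement membrane collagen gene Col4a1 (1.75 ± 0.70), all with a limma adjusted p of 0.941. Without W18 they differed by 1.03, 0.97, 0.81 and 1.04. The median over the 15 matrix substrates tested was 0.90 and that over the 13 inducers and AP-1 factors 0.88, while ADAM proteases (9 genes, -0.11), ADAMTS-like proteins (6 genes, 0.10), the plasminogen system (7 genes, 0.41), cysteine proteases (4 genes, 0.49) and the other activators and inhibitors (11 genes, -0.02) lay nearer to 0. Without W18 the median was 0.44 for matrix substrates and 0.74 for inducers and AP-1 factors, beside -0.07 over all genes. The list of inducers shares Fos, Fosb, Jun and Junb with the early response list, and the matrix substrates share Col1a1, Col1a2 and Col3a1 with the fibroblast list.

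Time on the diet was examined over both control diets, as 12 late arrays (W3 to W18) against 10 early arrays (D1 to W0). The mice of the late arrays were also older, and no early array shared a scan day with a late one. The part of age or scan day was not tested. Adamts17, which acts on fibrillin microfibrils, was the member with the lowest p. Its mean level was -1.40 on the early arrays and -4.14 on the late arrays, a difference of -2.74 ± 0.68 that did not pass in limma (adjusted p = 1.000, and from 0.0960 to 1.00 when each time point was left out in turn). With normexp background correction the difference was -1.76, and with pairs of arrays on a shared slide -1.26. On the LFC arrays it was -1.06, -2.94, -0.41, -1.33 and -1.87 from D1 to W0, and on the HFC arrays -2.67, -1.33, 0.07, -0.86 and -1.62. From W3 to W18 the HFC arrays gave -3.00, -3.76, -4.98, -2.92, -3.72 and -4.73, and the LFC arrays -0.03, -4.78, -4.78, -6.81, -3.35 and -6.79. Adamts17 was well above background on all 10 early arrays and on 9 of the 12 late ones. Its LFC values of W3 and W18 lie at the lowest well-above level of their arrays, -0.03 and -6.79.

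None of 37 members tested passed between late and early in limma, beside 0% of genes (0 of 21599), and 2 passed at an unadjusted p under 0.05, beside 3.09%. The median difference was -0.51, beside 0.02 over all genes, and -0.05, beside 0.05, without W18. Without D14, W3, W9 and W18 it was 0.09, beside -0.12. After Adamts17 the largest negative differences were those of Adamts9 (-1.39 ± 0.74) and Adamts7 (-1.20 ± 0.57), while Mmp2 (1.25 ± 1.17) and Mmp13 (1.05 ± 1.15) were on the positive side, and none of them passed. Mmp7 passed the filter on dim spots only through the late arrays (7 of 12, beside 4 of 10 early arrays), so no difference is given. Most of the others rest on few time points. Adamts9 was at -0.79 without W18, and Mmp2 at 0.39 without D1 and at 2.17 without W18. Mmp13 was at 0.51 without D1 and at 1.68 without W9. On pairs with a shared slide Mmp2 turned to -0.17, and with normexp Mmp13 turned to -0.04. Of the 65 pathway genes 0 passed and 3 were lower at an unadjusted p under 0.05, namely the elastin gene Eln (-2.21 ± 0.82), the aggrecan gene Acan (-1.69 ± 0.66) and Ets2 (-0.95 ± 0.45). Without D14, W3, W9 and W18 Eln was at -1.30 and Ets2 at -0.55, and on pairs with a shared slide Acan was at -0.66.

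Whether the difference between HFC and LFC itself changed with time was tested as the late minus the early difference, over 6 late and 5 early pairs. No member of 35 tested passed in limma, beside 0% of genes (0 of 20827), and 2 passed at an unadjusted p under 0.05, beside 4.74%. The largest values were those of Mmp3 (3.14 ± 1.38), Mmp23 (2.43 ± 0.95) and Adamts2 (2.41 ± 1.50), with limma adjusted p-values of 0.789. Without W18 they were 1.95, 1.75 and 0.98. For Mmp3, HFC minus LFC averaged -0.46 over the early and 2.68 over the late pairs. At the other end were Adamts18 (-1.11 ± 1.14) and Adamts14 (-1.07 ± 0.88), which were -0.35 and -0.55 without W3. Adamts12 passed the filter on dim spots only through HFC (10 of 11 arrays, beside 5 of 11 LFC arrays), so no difference is given. The median was 0.83, beside -0.51 over all genes, and 0.36, beside -0.62, without W18. With normexp background correction the medians were 1.36 and 0.49, and the count at an unadjusted p was 13 members, beside 34.3% of genes. Adamts18 and Adamts14 then turned positive (1.34 and 1.36), so that their direction depends on the background correction. Of the 65 pathway genes 0 passed and 3 were higher at an unadjusted p under 0.05, the protease gene Klk8 (1.96 ± 0.71), the cathepsin gene Ctsk (2.42 ± 1.05, and 1.51 without W18) and the fibronectin gene Fn1 (2.09 ± 0.92, and 1.35 without D1).

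The next comparisons asked what Kal-1 added to the high-fat diet. HF5, HF20 and HF75 were each compared with the HFC arrays of the same time points, so these comparisons share their controls and are not independent of each other.

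With 5 μg, no member of 36 tested passed after adjustment in limma, beside 0% of genes (0 of 20842), and 5 passed at an unadjusted p under 0.05 (2 higher, 3 lower), beside 5.48% of genes. Of the 36, 24 were lower in HF5 (66.7%, beside 50.8% of genes), and the median was -0.22, beside -0.01. It was -0.42, beside 0.02, without W18 and -0.04, beside -0.00, without W3, W9 and W18. Adamts16 was lower in 6 of 6 pairs (-1.17 ± 0.29; limma adjusted p = 0.905), as was Mmp16, a membrane-type MMP (-1.04 ± 0.32), while Mmp27 was lower in 5 of 6 (-1.03 ± 0.43, and -0.66 without W3). With the mean of a gene's probes Adamts16 was at -0.76 and Mmp16 at -0.37. Mmp8 was higher in 5 of 6 pairs (1.46 ± 0.75, and 0.69 without W3) and Mmp7 in 4 of 6 (0.81 ± 0.82, and 0.11 without W15). Adamts18 was higher in 6 of 6 pairs (0.59 ± 0.18), but with normexp it was at -0.09. Adamts20 was not well above background on any of the 6 HFC arrays and was so on 3 of the HF5 arrays, at -3.85, -6.03 and -5.19. It passed the filter on dim spots only through HF5, so no difference is given, though it is 1 of the 2 higher members in the count above. Among the 65 pathway genes 0 passed, with 1 higher (Acan, 0.57 ± 0.24, and -0.21 with normexp) and 3 lower at an unadjusted p under 0.05 (Pcolce2, -1.08 ± 0.35; Col1a1, -0.84 ± 0.33; Adamtsl4, -0.74 ± 0.30, and -0.44 without W3). Matrix substrates were lower for 13 of 14 genes with a median of -0.56. The epithelial mean differed by 1.60 (SD 2.44) and the fibroblast mean by -0.53 (SD 0.83), and their part was not tested.

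With 20 μg, most members were lower than in HFC. Of 37 members tested 28 were lower (75.7%, beside 44.1% of genes), with a median of -0.66, beside 0.08 over all genes, and with normexp -0.69, beside -0.27. None passed in limma, beside 0% of genes (0 of 22087), while 11 passed at an unadjusted p under 0.05 (1 higher, 10 lower), beside 12.4% of genes. Of the 11, Mmp16 and Mmp28 passed the filter on dim spots through 1 diet only. All adjusted p-values were 0.405 or more.

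The largest negative differences in HF20 were those of Adamts8 (-1.89 ± 0.95), Mmp13 (-1.86 ± 1.14) and Adamts4 (-1.70 ± 0.89), with limma adjusted p-values of 0.408, 0.448 and 0.412. Without W12 they were -1.12, -0.66 and -1.09, and Mmp13 was lower in 3 of 5 pairs only. Without W3 and W9 they were -3.48, -3.79 and -3.16, and Adamts4 was at -2.60 without W3. Adamts4 in HF20 was 1.02, -0.34, -3.95, -2.78 and -3.44 from W3 to W15, and in HFC -0.85, 1.06, -3.06, 1.36 and 0.50. Adamts8 was 0.60, 0.39, -3.48, -4.63 and -4.06 in HF20, and -0.62, 1.63, -3.22, 0.36 and 0.15 in HFC. Adamts1 was 5.13, 3.24, 1.88, 1.01 and 1.53 in HF20, and 4.32, 4.22, 1.89, 5.53 and 4.86 in HFC. For these ADAMTS genes the HF20 arrays of W12 and W15 were low where HFC was high, and both were low at W9. The early response mean was 5.12, 4.46, 0.60, -0.72 and 2.23 in HF20 and 4.94, 5.52, 3.46, 5.37 and 5.21 in HFC, and the adipocyte mean was 2.16, 0.76, 5.11, 5.58 and 5.18 in HF20 and 1.76, 0.49, 4.82, 2.59 and 1.10 in HFC. These ADAMTS genes were thus low on the arrays where early response genes were low and adipocyte genes high, and the part of tissue composition or handling in their differences was not tested.

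Some other members were lower in HF20 at every time point, Mmp2 among them. Mmp2 was 1.90, 2.35, 1.83, 2.74 and 1.70 in HF20, and 2.98, 3.64, 3.33, 3.24 and 3.52 in HFC. The difference was -1.24 ± 0.26 (5 pairs; limma adjusted p = 0.405). Mmp3 (-1.10 ± 0.29), Mmp23 (-1.14 ± 0.32) and Adamts2 (-0.58 ± 0.20) were also lower in 5 of 5 pairs, while Timp1 was lower in 3 of 5 (-1.60 ± 0.59). On the positive side, Timp4 was higher in 4 of 5 pairs (1.15 ± 0.62). Mmp28 and Mmp10 were well above background on 3 and 4 of the HF20 arrays and on 1 and 2 of the HFC arrays. They passed the filter only through HF20, so no difference is given. Timp4 was 2.71, -0.76, 4.12, 4.41 and 3.44 in HF20, and 1.00, 1.07, 2.06, 2.32 and 1.69 in HFC, so that W6 alone was lower, and without it the difference was 1.90. Without W3 and W9 the difference of Timp4 was 0.67.

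Of the 65 pathway genes, 57 were lower in HF20 than in HFC, 18 of them at an unadjusted p under 0.05, and 0 passed in limma, beside 44.1% of all genes lower and 12.4% at an unadjusted p in either direction. The cathepsin K gene Ctsk, whose product cuts collagen (-1.03 ± 0.21), Pcolce2 (-1.01 ± 0.25), the versican gene Vcan (-1.51 ± 0.42) and the AP-1 gene Jund (-1.04 ± 0.33) were each lower in 5 of 5 pairs, with a limma adjusted p of 0.405. Inducers and AP-1 factors were lower for 13 of 13 genes with a median of -1.72, and the medians were -1.22 for the plasminogen system, -0.79 for ADAMTS-like proteins, -0.75 for the other activators and inhibitors, -0.42 for matrix substrates, -0.41 for ADAM proteases and -0.41 for cysteine proteases. The fibroblast mean was lower in 5 of 5 pairs (-0.65, SD 0.23), as was the macrophage mean (-0.57, SD 0.39).

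With 75 μg, Mmp2 was lower than in HFC. Its level was 0.65, -0.07, 1.74, 0.65 and 1.58 in HF75 from W3 to W15, and 2.98, 3.64, 3.33, 3.24 and 3.52 in HFC. Every HF75 array lay below every HFC array of these weeks, by a mean of -2.43 ± 0.34 (SE, 5 pairs), a 5.39-fold lower level (limma adjusted p = 0.0315). It was the only member of 35 tested to pass, beside 1.10% of genes (227 of 20656, of which 192 were higher and 35 lower). The call did not outlast the loss of most single time points. The adjusted p was 0.158 without W3, 0.0645 without W6, 0.135 without W12, 0.0951 without W15 and 0.0453 without W9, while the difference stayed between -2.64 and -2.11. With no block for the time point the adjusted p was 0.0641 and 0 of all genes passed. With normexp the adjusted p was 0.112, and with the 2 pairs scanned on a single day (W12 and W15) the difference was -2.26 with an adjusted p of 0.539. No HF75 array shared a slide with its HFC array.

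Of the 35 members, 15 passed at an unadjusted p under 0.05 (3 higher, 12 lower), beside 14.4% of genes. The 15 became 6 with normexp, beside 6.10%, and 7 without W3 and W9, beside 10.4%. Of the 15, Adamts20, Adamts12 and Adamts16 passed the filter on dim spots only through the diet where they were higher. Of the 35, 23 were lower (65.7%, beside 48.5% of genes), with a median of -0.26, beside 0.02. The median was -0.10, beside 0.03, with normexp and -0.13, beside 0.02, without W3 and W9. The arrays of the 2 groups did not overlap for 3 members, all lower in HF75 (Mmp2, Adamts10 and Adamts12), beside 3.56% of genes (735 of 20656) in either direction. Adamts12 was well above background on 1 of 5 HF75 arrays and on 5 of 5 HFC arrays, so that its place among the 3 rests on raised values, and no difference is given. Adamts10, which acts on fibrillin microfibrils, was -1.99, -1.90, -1.75, -2.11 and -2.05 in HF75 and -1.33, -0.87, -1.45, -1.62 and -1.47 in HFC (-0.61 ± 0.23; limma adjusted p = 0.280).

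Mmp13 differed in the other direction from Mmp2, with values in HF75 of 2.36, -0.66, 1.49, 3.31 and 1.29 and in HFC of -1.20, -2.15, -5.20, 0.78 and -1.10. It was higher in 5 of 5 pairs by 3.33 ± 0.71, or 10.1-fold, and did not pass (limma adjusted p = 0.0946). The groups overlapped, as HFC W12 at 0.78 lay above HF75 W6. The difference was 2.49 without W9, the time point of the lowest HFC value. Mmp8, the other collagenase, was higher in 2 of 5 pairs only (1.43 ± 0.85; limma adjusted p = 0.511), and was at 0.65 without W9. Adamts20 was not well above background on any of the 5 HFC arrays of W3 to W15 and was so on 4 of 5 HF75 arrays, at -3.11, -2.74, -2.96 and -4.96. As it passed the filter only through HF75, no difference or test is given for it.

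Adamts16 was -6.35, -4.27, -4.27, -6.01 and -7.32 in HF75, where 2 of 5 values were well above background, and -3.17, -1.56, -2.33, -5.12 and -3.10 in HFC. It passed the filter only through HFC, so no difference or test is given. Mmp27 was lower in 5 of 5 pairs (-1.82 ± 0.42, and -0.79 with normexp; limma adjusted p = 0.117), as were Mmp23 (-1.31 ± 0.34), Adamts5 (-1.42 ± 0.40, and -0.60 with pairs scanned on a single day), Mmp3 (-0.87 ± 0.26) and Adamts7 (-0.61 ± 0.24, and -0.35 with normexp). The TIMPs differed from HFC by -0.34 to 0.23 in HF75, with standard errors from 0.34 to 0.44. The spot of Timp2 was saturated on all 5 HFC arrays of W3 to W15 and on 2 HF75 arrays, so its difference (-0.07) does not show how close the levels were.

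**Figure D3:**
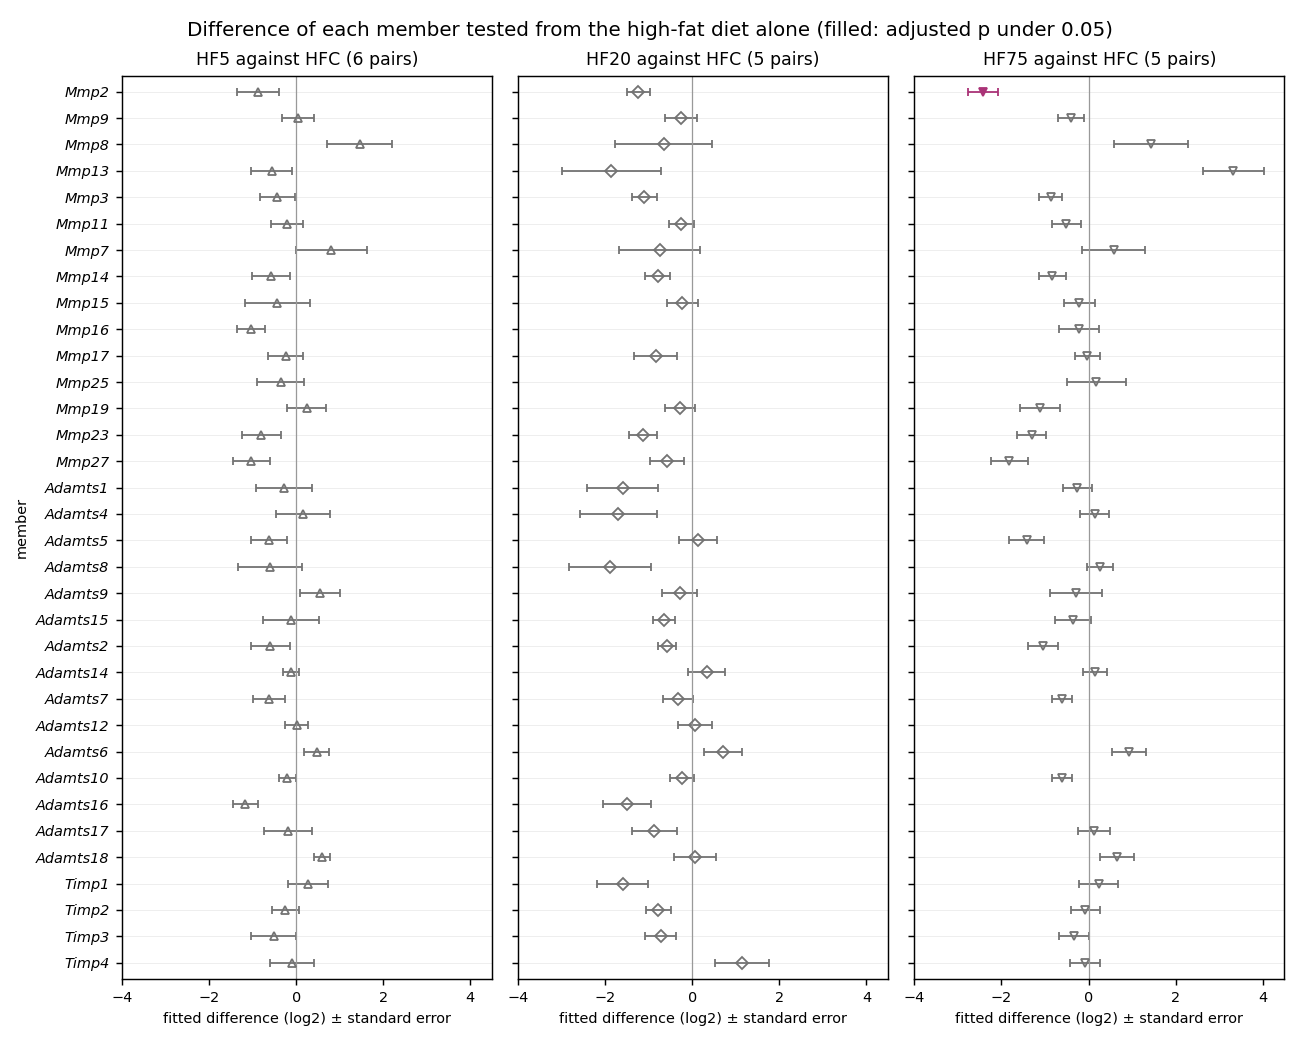
Fitted log2 difference from HFC of each member tested, apart from those that passed the filter on dim spots through 1 diet only, in HF5 (6 pairs), HF20 (5 pairs) and HF75 (5 pairs), with bars of 1 standard error and members in order of role. The only filled point is Mmp2 in HF75 at -2.43, while Mmp13 lies highest there at 3.33.

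Among the pathway genes, 3 of 65 passed in HF75, all lower, beside 1.10% of all genes. The basement membrane collagen gene Col4a2 was lower by 1.98 on the log2 scale (SE 0.26; limma adjusted p = 0.0241). The fibrillar collagen gene Col5a1 was lower by 1.44 (SE 0.22; limma adjusted p = 0.0392). Adamtsl4, whose product binds fibrillin, was lower by 1.77 (SE 0.28; limma adjusted p = 0.0430). Each was lower in 5 of 5 pairs. None of these calls outlasted the loss of a single time point. The adjusted p-values then lay between 0.0513 and 0.120 for Col4a2, between 0.0617 and 0.213 for Col5a1 and between 0.0822 and 0.199 for Adamtsl4. With normexp they were 0.201, 0.374 and 0.643, and with no replicate block 0.0641, 0.0881 and 0.0843. Ctsk was lower by a mean of -1.50 ± 0.25 and narrowly did not pass (limma adjusted p = 0.0514). At an unadjusted p under 0.05, 26 of the 65 were lower and 1 higher, beside 14.4% of all genes in either direction. Of the 26, Adam12 passed the filter only through HFC. Of the 14 matrix substrates tested 11 were lower, with a median of -1.12, and of the 6 ADAMTS-like genes all were lower (median -0.84). The medians of the other lists were -0.53 for the other activators and inhibitors, -0.46 for cysteine proteases, -0.42 for the plasminogen system, -0.28 for ADAM proteases and 0.14 for inducers and AP-1 factors.

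Beside these values, the macrophage mean in HF75 was 0.26, 0.94, 0.16, 0.26 and 0.92 from W3 to W15, and in HFC 0.74, 2.52, 1.24, 1.15 and 1.39. It was lower in 5 of 5 pairs (-0.90, SD 0.46). The fibroblast mean was 3.23, 3.95, 3.81, 3.59 and 3.64 in HF75 and 4.36, 4.72, 3.78, 4.37 and 4.60 in HFC, lower in 4 of 5 pairs (-0.72, SD 0.45). The epithelial mean was higher in 5 of 5 pairs (1.37, SD 1.30), and the early response mean differed by 0.16 (SD 0.54). The part of these cell types in the lower level of Mmp2 and the collagen genes was not tested.

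Side by side over the doses, Mmp2 differed from HFC by -0.88 ± 0.48 in HF5 (lower in 5 of 6 pairs; limma adjusted p = 0.966), -1.24 ± 0.26 in HF20 and -2.43 ± 0.34 in HF75. HF5 includes W18, which the other doses lack. Over W3 to W15 alone Mmp2 in HF5 was at -1.23, beside -1.24 in HF20. Without W3, the time point of its lowest HF5 value, but with W18 kept, Mmp2 in HF5 was at -0.38. Without W3, W9 and W18 it was at -0.76. Mmp13 differed by -0.56 ± 0.47, -1.86 ± 1.14 and 3.33 ± 0.71, with -0.17 in HF5 over W3 to W15 alone and -0.66 in HF20 without W12. In HF5 Mmp13 turned to 0.31 without W3, W9 and W18. Adamts16 differed by -1.17 ± 0.29 in HF5 (-1.23 without W18) and by -1.51 ± 0.55 in HF20. The doses share their HFC arrays and were not tested against each other.

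The 4 arrays with WS in the title were set against the 34 others. None of the 43 members lay wholly below or above the other arrays, beside 0.0383% of genes (11 of 28739). For Adamts4, at -3.95 to -3.06 on the WS arrays, the arrays of HFC D1 (-3.46), HF20 W15 (-3.44) and HF5 W3 (-3.59) lay in the same range. At W9 the HF75 array, which has no WS in its title and was scanned on another day, had Adamts4 at -2.38 and Adamts1 at 1.59 with an adipocyte mean of 2.95 and an early response mean of 4.49.

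Finally, the promoters of the members were read, since many MMP genes are known to respond to AP-1, the factor made of Fos and Jun proteins. RefSeq promoters (GRCm38.p6, 250 bases before to 50 after the start) were at hand for 29 of the 43 members. The AP-1 motif TGANTCA, searched on both strands and equal to its own reverse complement apart from the N, occurred in 5 of these 29 (17.2%), beside 2425 of 27025 genes (8.97%). All 5 belong to the 7 members that lie within 427 kb at chr9:7272514-7699585 (Mmp7, Mmp20, Mmp27, Mmp8, Mmp10, Mmp3 and Mmp13). Of the 22 other members with a promoter, 0 held the motif. The windows around it are shown because they set these neighbouring genes, among them Mmp13, Mmp3 and Mmp7 described above, beside each other. Capitals mark the motif, and all are read on the plus strand upstream of the start. They lie at chr9:7272468-7272496 (Mmp13), chr9:7445765-7445793 (Mmp3), chr9:7502268-7502296 (Mmp10), chr9:7692016-7692044 (Mmp7) and chr9:7628125-7628153 (Mmp20).
Mmp13: ccccaaagtggTGACTCAtcactatcatg
Mmp3: ggaagcaattaTGAGTCAgttttcgggtg
Mmp10: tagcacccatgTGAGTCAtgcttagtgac
Mmp7: aagtgtgcaaaTGAGTCAcctatttccac
Mmp20: catttgagacaTGAATCAtcacttacagg

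A match describes the letters of a promoter and not a bound site. In HF75 the genes with the motif did not share a direction. There, Mmp13 was higher than in HFC by 3.33 and Mmp3 lower by a mean of -0.87, while Mmp7 differed by 0.58 ± 0.72. In HF20 Mmp13, Mmp3 and Mmp7 differed by -1.86 (-0.66 without W12), -1.10 and -0.75 ± 0.93. Mmp20, with the motif variant TGAATCA, was well above background on 1 array.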

How the data were processed

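Per the file headers, the deposited intensity of each spot was background-subtracted and detrended within the array by Agilent Feature Extraction 10.5.1.1 (the labels give 9.1), with no normalization between arrays. The other deposited columns used were gene symbols and spot flags. The authors also deposited 40 columns of fold changes (log2, GeneSpring GX, each relative to LFC at the same time), which were not used. Of 40 arrays, 2 with conflicting labels were in no group. The array holds 40628 probes, and outlier spots were left out.

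From log2 intensity the 75th percentile of the array was subtracted. Dim spots, those that the software did not call well above background, took at least the lowest level called so on their array. A gene was read through its brightest probe, and tested where at least 50% of the arrays of either group were well above background. limma 3.58.1 in R 4.3.3 fitted each comparison with time point as block (late against early: time point as random block), with p-values adjusted by Benjamini-Hochberg over all probes tested. Arrays were paired by the time point in the labels. Over the probes tested, deviations of the LFC and HFC arrays of a time point from their group means correlated between -0.27 and 0.68. The test was also run on simulated data with an equal spread for all probes and no dim spots. That run does not show how the test behaves on these arrays. Tables and figures were made with Python 3.11.15, NumPy 2.4.6, pandas 2.3.3, data.table (R package, version 1.17.8) and matplotlib 3.10.9.

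Named in each comparison are members with an adjusted p under 0.05 (at most 10 per direction) and, where fewer than 3 passed in a direction, the 3 tested members with the largest difference. Where such a member passed the filter through 1 group or 1 diet only, its detection is given in place of its difference. Levels are given for 12 members chosen by role, and at most 4 pathway genes are named per comparison, those with the smallest adjusted p. Other members named were chosen after their values were seen. Members and lists were chosen with earlier results of these data known. The number of arrays limits the precision.

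Alternatives were normexp (offset 50), quantile normalization, dim values kept, no filter or a stricter one, the mean of a gene's probes, no block, slide as block, pairs on a shared slide, leaving out time points, all 38 arrays in a single fit and the methods' t-test. That test was run here over the single arrays of 2 diets, while the study set replicate values of a time point against each other, so its inputs differ.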

Additional observations from a re-analysis of the deposited data

Results flagged for a closer look

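For 12 members, the HF5, HF20 and HF75 arrays were searched for an array far from the others of its group. In 36 such groups 2 were found, and chance gives about 1 in 20 groups. Mmp3 was lowest in HF20 at W6 (-0.62), with the nearest HF20 array at 2.32, a gap of 0.839 of the range. Mmp14 was lowest in HF5 at W3 (1.05), with the nearest HF5 array at 3.15, a gap of 0.635 of the range. The causes were not tested.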

How the results depend on the processing

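Over 36 named differences, 748 values under other settings were computed. Of these, 718 kept their direction and side of the threshold, 12 no longer passed, 8 newly passed and 10 changed sign. The 12 were all of Mmp2 in HF75, the only named difference that passed. As the others had not passed, keeping their side says little about stability. The 8 came from the t-test at an unadjusted p, a laxer threshold, or from Adamts20 and Adamts16 in HF75 with quantile normalization or dim values kept.

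With normexp the sign changed for Adamts20 in HF5 (-0.31), Mmp28 and Mmp10 in HF20 (-0.61 and -0.69), Mmp13 late against early (-0.04), and Adamts18, Adamts14 and Adamts12 in the late against early HFC minus LFC difference (1.34, 1.36 and 2.12). For Adamts12 that difference ranged from -1.87 to 0.11 when each time point was left out, with 0.11 without W3. Mmp8 in HFC against LFC was 0.22 without D14, W3, W9 and W18, and Mmp2 late against early was -0.17 with pairs on a shared slide. Adamts20, Mmp28, Mmp10 and Adamts12 passed the filter on dim spots through 1 diet only. Their signs rest on raised values and support nothing, so no values are given for them. The causes were not tested.

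In HF75 against HFC, 1 member passed, with quantile normalization 3, with dim values kept 2 and with the mean of a gene's probes 2. Beside Mmp2, these were Adamts20 and Adamts16 with quantile normalization, and Adamts20 with dim values kept. Adamts20 and Adamts16 passed the filter on dim spots only through the diet where they were higher, so their added calls support nothing. With the mean of a gene's probes the added call was of another member. Adamts20 and Adamts16 then had limma adjusted p-values of 0.0600 and 0.203. With normexp, with no filter, with no replicate block, without D14, W3 and W9, without W18 as well, with pairs scanned on a single day, with all 38 arrays in a single fit and with the methods' t-test after adjustment the count was 0. The adjusted p of Mmp2 in HF75 was 0.112 with normexp, 0.0537 with no filter, 0.0641 with no replicate block, 0.177 without D14, W3 and W9, 0.539 with pairs scanned on a single day, 0.620 with all 38 arrays and 0.184 with the t-test. At an unadjusted p the t-test gave 10 members in HF75 and 3 in HF20. Leaving out each time point in turn gave 0 to 1 members in HF75, as Mmp2 had an adjusted p of 0.158 without W3, 0.0645 without W6, 0.135 without W12 and 0.0951 without W15, and 0.0453 without W9.

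All genes called in HF75 numbered 227, beside 49 with normexp, 115 with no filter, 111 with the stricter filter, 0 with no replicate block, 0 without D14, W3 and W9, 0 with pairs scanned on a single day, 0 with all 38 arrays and 0 with the adjusted t-test. They numbered 0 without W3, 7 without W6, 161 without W9, 79 without W12 and 29 without W15. The t-test at an unadjusted p called 2673 genes in HF75, 1325 in HF20, 347 in HF5 and 314 in HFC against LFC. Late against early, 2 genes were called with the stricter filter and 1 with no replicate block. The fit with no replicate block changed no other call of a member.

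Pairs on a shared slide were not run for HF20 and HF75, as none exist. The settings with pairs scanned on a single day, without D14, W3, W9 and W18, and for the WS arrays without the LFC arrays of W3, D14 and W18, and the marker and pathway lists without W18, were chosen after seeing the data. For the WS arrays 0 members lay outside under each of 5 settings.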

Other observations

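The other 2 arrays of W18 carry labels that conflict between HF20 and HF75. On the array with 21710 of 43803 spots marked as outliers, 23 members had a value, among them Mmp2 (-1.16), Mmp3 (0.67), Mmp14 (1.47), Adamts1 (3.42), Timp1 (-0.20) and Timp3 (4.04). On the other array, with 52 such spots, 33 of 43 members were well above background, among them Mmp2 (2.75), Mmp3 (3.74), Mmp13 (-0.87), Mmp14 (3.19), Adamts1 (5.36), Adamts4 (1.59), Timp1 (1.00) and Timp3 (6.29).

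Adamts19 was well above background on all 5 arrays of W6, at -3.94 in LFC, -2.45 in HFC, -3.26 in HF5, -3.22 in HF20 and -2.65 in HF75. This was seen only after its values were.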
